A study of Homo sapiens with 6 samples.

Results

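Actin isoforms, tropomyosins and 3 contractile partners were followed in T47D cells after knockdown of ELF5, an ETS factor known for its part in luminal mammary cells. The set held 10 genes picked by symbol from the 26364 genes of the series table, namely the actins ACTA2, ACTB and ACTG1, the tropomyosins TPM1, TPM2, TPM3 and TPM4, the alpha-actinins ACTN1 and ACTN4, and the actin-binding protein SYNPO2. All 10 were in the table, and all 10 passed the filter on low values that left 16032 genes for testing. T47D is a human cell line of luminal A breast cancer. One group of 3 libraries came from cells that received an siRNA against ELF5 (siELF5), and the other group of 3 from cells that received a control siRNA (siNC), with total RNA taken 48 h after transfection in both. Each group received 1 siRNA under its own catalogue number, so a fold change compares siRNA products as well as targets, and the labels do not say whether the replicates were separate cultures. P-values therefore measure only how far these libraries scatter, and that scatter may be technical.

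Actin polymerises into filaments that carry the shape, adhesion and contraction of a cell. ACTB and ACTG1 encode the cytoplasmic beta and gamma actins of nearly every cell, whereas ACTA2 encodes the alpha actin of vascular smooth muscle, which myoepithelial cells and activated fibroblasts also make. Tropomyosins are coiled coils that lie along the filament and set which myosins and severing proteins reach it, alpha-actinins cross-link filaments and tie them to adhesions, and SYNPO2 (myopodin, synaptopodin 2) binds actin and alpha-actinin and bundles filaments. Many of these genes are known targets of serum response factor (SRF), which binds the CArG box and is switched on through the actin-binding coactivators MKL1 and MKL2. In the mammary gland the luminal cells face the lumen, and the contractile alpha-actin network belongs mainly to the myoepithelial layer around them.

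The libraries held 72.4 to 83.7 M assigned reads (M, 1e6 reads) in siELF5 and 66.8 to 83.3 M in siNC, and values are given as normalised read counts, which are reads divided by a size factor per library. ELF5 itself had 3678, 3725 and 3638 normalised reads in siELF5 replicates 1, 2 and 3, against 13225, 13148 and 12910 in siNC replicates 1, 2 and 3, so the target was at 28.1% of the siNC mean and matched all 6 labels. All 8 luminal epithelial markers examined (such as KRT8, GATA3 and EPCAM) were present in every library, with a summed level of 580700 to 607400 in siELF5 and 648100 to 696500 in siNC. They moved in both directions, as KRT8 and KRT18 fell by 0.41 and 0.45 on the log2 scale, ESR1, FOXA1 and GATA3 rose by 0.45, 0.31 and 0.15, and 3 did not pass. A library GC score, which measures how far GC-rich transcripts stand above or below their average, was 0.222, 0.278 and 0.221 in siELF5 and -0.396, -0.219 and -0.0726 in siNC. The groups did not overlap in this score, so a group effect and a base-composition effect of the libraries cannot be told apart by it. Each gene is therefore also given after a per-library GC correction and with the GC score as a covariate, a setting that widens the standard errors.

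Of the 10 genes, 6 were higher and 2 lower in siELF5 (limma adjusted p under 0.05, Benjamini-Hochberg over all tested genes), and TPM3 and ACTN4 did not pass. Over all 16032 tested genes, 47.1% were called, 23.8% higher and 23.3% lower. The siELF5 and siNC values did not overlap in 8 of the 10 genes, against 55.9% of all tested genes. The median log2 fold change of the 10 was 0.15, and that of all tested genes was 0.0015. With 10 genes and a background this high, the counts alone do not set the group apart, and sizes differed widely within it. SYNPO2 had a log2 fold change that 0.324% of tested genes equalled or exceeded in size and ACTA2 one that 4.19% did, whereas for ACTB that share was 63.3%. In bulk RNA, fewer cells expressing a gene and less RNA per cell cannot be told apart.

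**Figure D1:**
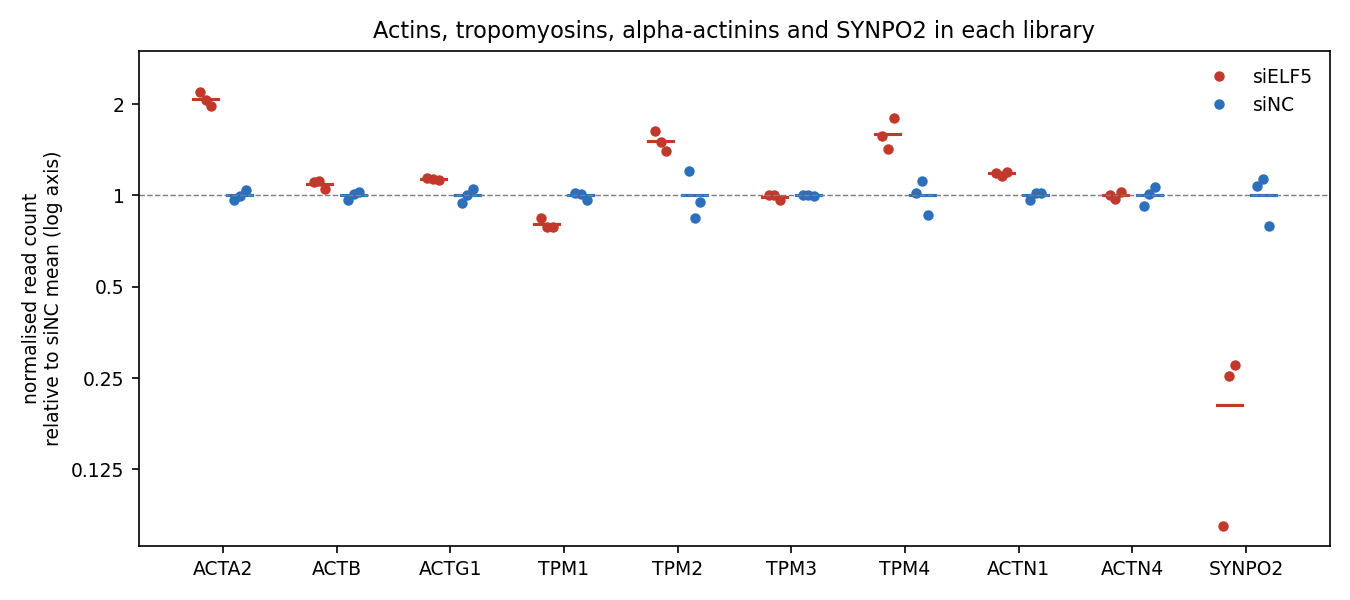
Normalised read count of each gene in each library divided by the siNC mean of that gene, on a log axis of base 2; red points are the 3 siELF5 libraries, blue points the 3 siNC libraries, short lines the group means. ACTA2 lay near 2 times the siNC mean in all siELF5 libraries, SYNPO2 at 20.3% of it on average, and TPM3 and ACTN4 on the siNC mean.

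Per kilobase of merged exons, a scale on which genes can be compared, the levels of the 10 genes covered a wide range. ACTB averaged 96229 normalised reads per kilobase in siELF5 and 88025 in siNC, and it was the fourth most abundant gene of the table by reads. ACTG1 followed with 47010 in siELF5 and 41509 in siNC, and TPM3 with 7686 in siELF5 and 7753 in siNC. Next came the alpha-actinins and the second tropomyosin, with ACTN4 at 2601 in siELF5 and 2599 in siNC, ACTN1 at 2167 in siELF5 and 1832 in siNC, and TPM1 at 808 in siELF5 and 1003 in siNC. ACTA2 was far lower, at 248 in siELF5 and 120 in siNC. The lowest were TPM2 with 42.2 in siELF5 and 27.9 in siNC, TPM4 with 13.5 in siELF5 and 8.4 in siNC, and SYNPO2 with 1.29 in siELF5 and 6.36 in siNC. This order held in both groups. No neighbours in it overlapped in either group, but TPM4 and SYNPO2 in siNC nearly touched, the lowest TPM4 library being at 7.27 and the highest SYNPO2 library at 7.23 reads per kilobase.

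**Figure D2:**
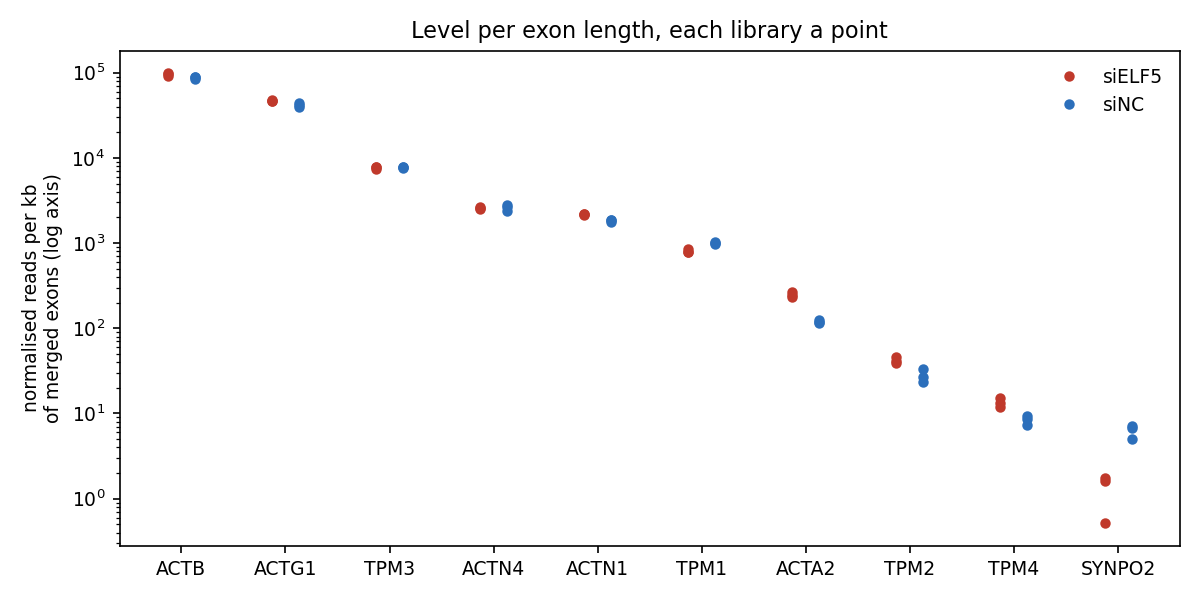
Normalised reads per kilobase of merged exons on a log axis of base 10, genes ordered from high to low; red points are siELF5 libraries and blue points siNC libraries. The cytoplasmic actins stand above all other genes shown, TPM3 is the most abundant tropomyosin, and SYNPO2 in siELF5 is the lowest point set at 1.29 on average.

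The 3 actin genes encode nearly the same protein but can be told apart by their bases. Over the coding sequence ACTB and ACTG1 were identical at 91.3% of aligned positions, ACTA2 and ACTB at 81.8%, and ACTA2 and ACTG1 at 82.1%. The longest run shared by ACTB and ACTG1 was 59 bases, and that shared by ACTA2 and ACTB was 32 bases. A stretch of 60 coding bases (bases 67 to 126 of the ACTA2 coding sequence and 61 to 120 of the others, counted from the start codon; GENCODE 29, chromosomes 10, 7 and 17 for ACTA2, ACTB and ACTG1) is shown because it lets a read be assigned, with capitals at the positions that differ from ACTB, 13 in ACTA2 and 11 in ACTG1.
ACTA2: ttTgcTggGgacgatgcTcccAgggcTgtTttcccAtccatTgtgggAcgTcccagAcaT
ACTB: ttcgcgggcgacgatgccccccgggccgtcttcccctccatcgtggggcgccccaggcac
ACTG1: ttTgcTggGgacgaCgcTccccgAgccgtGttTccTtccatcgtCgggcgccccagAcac

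ACTA2 rose in siELF5 more than any other gene of the set. Its normalised read count was 783, 734 and 700 in siELF5 replicates 1, 2 and 3, against 343, 355 and 370 in siNC replicates 1, 2 and 3. Every siELF5 library was well above every siNC library, and the gap was several times the spread within a group. The mean was 739 ± 41.7 (SD, n = 3) in siELF5 and 356 ± 13.9 (SD, n = 3) in siNC, with a log2 fold change of 1.05 and an SE of 0.0831 (limma adjusted p = 6.91e-07, 95% interval 0.87 to 1.23). It was 1.07 after GC correction, and 0.90 (SE 0.223, limma adjusted p = 0.0183) with the GC score as a covariate, so ACTA2 was the one gene of the 10 called under every setting tried. Of the 50-base words of ACTA2 transcripts, 0.875% also occur in transcripts of other genes.

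Most other smooth muscle or myoepithelial markers did not pass the test or were hardly detected. Of 12 such markers, 6 had a mean of at least 10, and 5 of these did not pass. TP63, a basal cell transcription factor, rose (log2 fold change 0.32, limma adjusted p = 0.0483). TP63 lost its call with the GC score as a covariate (0.42, limma adjusted p = 0.549). The summed level of the 12 was 4201 to 4330 in siELF5 and 3775 to 4455 in siNC, mostly from SMTN. MYOCD, the smooth muscle coactivator of SRF, had no read in any library. MYH11, the smooth muscle myosin heavy chain, had 184, 219 and 201 normalised reads in siELF5 against 201, 213 and 225 in siNC (log2 fold change -0.08, limma adjusted p = 0.616). CNN1, DES and ACTG2, the calponin, desmin and gamma actin of smooth muscle, stayed under 5 normalised reads in every library. The fibroblast markers summed to 3383 to 3892 in siELF5 and 4227 to 5413 in siNC, mostly COL1A1, and the endothelial and leukocyte markers to 27.2 to 43.2 in siELF5 and 42.6 to 61.8 in siNC.

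Genes on the opposite strand overlap the ACTA2 exons, and the library kit does not mark strand, so reads in the overlap cannot be assigned by strand. FAS, a death receptor gene, overlaps 380 bases (12.8%) of the merged ACTA2 exons and had 4240, 4340 and 4180 normalised reads in siELF5 against 3600, 3370 and 3600 in siNC. ACTA2-AS1 overlaps 17.3% of them and stayed under 10 normalised reads in every library. The siELF5 values of FAS were all above its siNC values, and its part in the ACTA2 value was not tested.

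ACTB and ACTG1 moved by far less. ACTB had 342892, 346808 and 326185 normalised reads in siELF5, against 299537, 312464 and 317278 in siNC. The groups did not overlap, but the lowest siELF5 library was close to the highest siNC library. The mean was 338629 ± 11000 (SD, n = 3) in siELF5 and 309760 ± 9170 (SD, n = 3) in siNC, with a log2 fold change of 0.13 and an SE of 0.0327 (limma adjusted p = 0.00594). After GC correction it was 0.08 (limma adjusted p = 0.0468), and without the intensity trend the call was lost (limma adjusted p = 0.062). With the GC score as a covariate the log2 fold change was -0.006 (limma adjusted p = 0.98).

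ACTG1 had 142081, 140658 and 139366 normalised reads in siELF5, against 117323, 125089 and 130294 in siNC. The siELF5 libraries lay close together and above a wider siNC group, with a coefficient of variation of 0.965% in siELF5 and 5.25% in siNC. The log2 fold change was 0.18 with an SE of 0.0355 (limma adjusted p = 0.00107), 0.10 after GC correction and -0.03 (limma adjusted p = 0.867) with the GC score as a covariate. At 57.8% GC the ACTG1 transcript is among the GC-richer of the set. The siNC values of ACTG1 ran in the same order as the GC scores of those libraries, and so did those of ACTA2, ACTB, ACTN1 and ACTN4.

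Reads of processed copies can blur the cytoplasmic actins. Of the 50-base words of ACTB, 4.84% also occur in transcripts of other genes, such as ACTBP2 and the POTE genes, which carry an actin-derived part. For ACTG1 the share was 2.3%, from genes such as ACTG1P20 and ACTBP2, with no POTE gene among them. POTEE had 1925, 1700 and 1622 normalised reads in siELF5 against 1329, 1547 and 1555 in siNC, and POTEJ 1880, 1669 and 1583 in siELF5 against 1263, 1509 and 1501 in siNC. Both rose (limma adjusted p = 0.0191 for POTEE and 0.0155 for POTEJ) and both remain uncertain, since the counting of shared reads is not stated in the labels or notes. With the GC score as a covariate POTEE was at -0.06 and POTEJ at -0.08, neither past the threshold. Of other copies, POTEF, POTEI and ACTG1P17 lay above 0 and did not pass. ACTG1P20 did not pass either, with a log2 fold change of -0.32 (limma adjusted p = 0.122). The level of POTEE and POTEJ is far under that of ACTB.

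Within a library, ACTA2 took a larger share of actin reads in siELF5. Its share of the reads of the 3 actins was 0.161%, 0.150% and 0.150% in siELF5, against 0.0821%, 0.0811% and 0.0827% in siNC. The share is of reads and not of molecules, and it does not depend on the scaling between libraries. The groups did not overlap (log2 difference 0.91, exact two-sided permutation p = 0.1, the smallest that 3 against 3 libraries can give, adjusted p = 0.117 over 7 ratios). The ratio of ACTB to ACTG1 was 2.41, 2.47 and 2.34 in siELF5 and 2.55, 2.50 and 2.44 in siNC, and these groups overlapped (exact permutation p = 0.2). ACTA2 reads added little to the total, and the sum of the 3 actins was 480070 ± 12000 (SD, n = 3) in siELF5 and 434351 ± 15700 (SD, n = 3) in siNC.

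Among the tropomyosins, the abundant TPM1 fell, the scarce TPM2 and TPM4 rose, and TPM3 did not pass. TPM1, whose isoforms serve both muscle and stress fibres, had 10917, 10135 and 10176 normalised reads in siELF5, against 13166, 13065 and 12525 in siNC. All siELF5 libraries were below all siNC libraries. The mean was 10409 ± 440 (SD, n = 3) in siELF5 and 12919 ± 345 (SD, n = 3) in siNC, with a log2 fold change of -0.31 and an SE of 0.0372 (limma adjusted p = 2.37e-05). It was -0.27 after GC correction and -0.20 (limma adjusted p = 0.221) with the GC score as a covariate. TPM1-AS lies opposite 16.1% of the merged TPM1 exons and is not analysed here.

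TPM2, a tropomyosin of muscle and of stress fibres, had 148, 136 and 127 normalised reads in siELF5, against 109, 76.5 and 86.0 in siNC. The siELF5 libraries were all above the siNC libraries, but the siNC values were spread widely, with a mean of 90.6 ± 16.8 (SD, n = 3) against 137 ± 10.2 (SD, n = 3) in siELF5. The log2 fold change was 0.61 with an SE of 0.175 (limma adjusted p = 0.0125). It was 0.56 after GC correction. Of the calls of the set it was lost under the most alternatives run, among them without siELF5 replicate 1 (0.55, limma adjusted p = 0.0542), without siNC replicate 2 (0.49, limma adjusted p = 0.0573) and after quantile scaling (0.42, limma adjusted p = 0.0716).

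TPM4, a short tropomyosin of non-muscle cells, had 114, 103 and 131 normalised reads in siELF5, against 73.6, 81.2 and 62.7 in siNC. All siELF5 values were above all siNC values. The mean was 116 ± 14.3 (SD, n = 3) in siELF5 and 72.5 ± 9.25 (SD, n = 3) in siNC, with a log2 fold change of 0.67 and an SE of 0.183 (limma adjusted p = 0.0087). It was 0.68 after GC correction and 1.05 (SE 0.497, limma adjusted p = 0.242) with the GC score as a covariate, where TPM2 was at 1.11 (SE 0.459, limma adjusted p = 0.17). Of the 50-base words of TPM4, 7.14% occur in transcripts of other genes, the highest share of the 10.

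TPM3, the main tropomyosin of these cells by reads, had 65295, 65406 and 62734 normalised reads in siELF5, against 65303, 65112 and 64711 in siNC. The groups overlapped, and the siELF5 mean was 99.1% of the siNC mean, at 64478 ± 1510 (SD, n = 3) in siELF5 and 65042 ± 303 (SD, n = 3) in siNC. The log2 fold change was -0.01 with an SE of 0.0275 (limma adjusted p = 0.734), with a 95% interval of -0.07 to 0.05. It was 0.04 after GC correction (limma adjusted p = 0.158) and -0.0051 (limma adjusted p = 0.981) with the GC score as a covariate. TPM3P9, a related pseudogene, had 1162, 1184 and 1289 normalised reads in siELF5 and 1437, 1457 and 1427 in siNC, and is uncertain because it may share reads with TPM3.

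The balance of tropomyosin reads followed from these values. TPM1 took 14.3%, 13.4% and 13.9% of tropomyosin reads in siELF5, against 16.7%, 16.7% and 16.2% in siNC. TPM3 took 85.4%, 86.3% and 85.7% in siELF5, against 83.0%, 83.1% and 83.6% in siNC. TPM2 and TPM4 each stayed under 0.2% in all libraries. None of these 4 shares overlapped between groups (log2 differences -0.26 for TPM1, 0.67 for TPM2, 0.04 for TPM3 and 0.74 for TPM4, each with an exact two-sided permutation p = 0.1, adjusted p = 0.117). The 4 tropomyosins summed to 75141 ± 1740 (SD, n = 3) normalised reads in siELF5 and 78124 ± 660 (SD, n = 3) in siNC, 96.18% of the siNC mean. The coding sequences of the tropomyosins were identical at 72.4% (TPM1 and TPM3) to 79.1% (TPM2 and TPM4) of aligned positions.

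**Figure D3:**
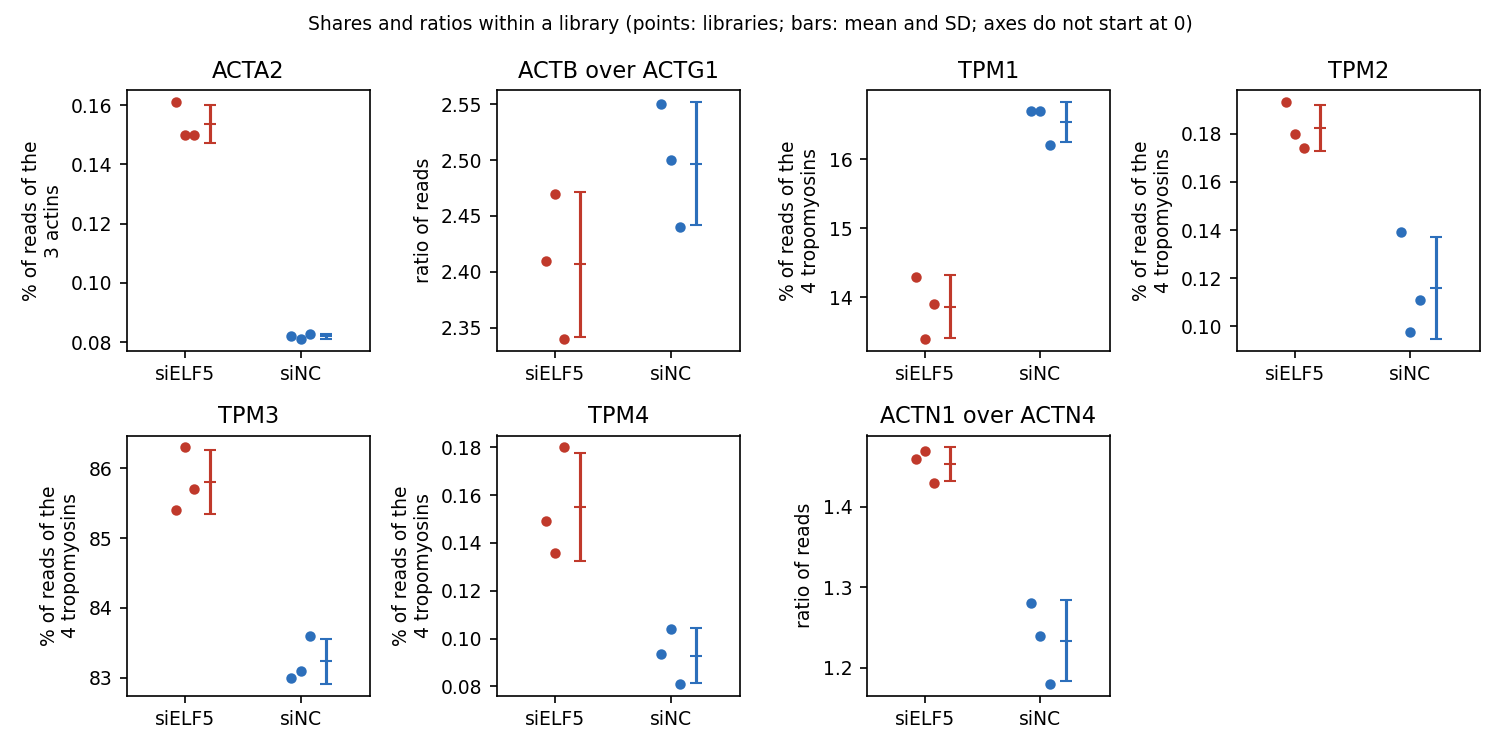
Shares and ratios of reads within each library for the actins, tropomyosins and alpha-actinins; red points are siELF5 libraries, blue points siNC libraries, bars the mean and SD, and the vertical axes do not start at 0. The ACTA2 share is 0.154% in siELF5 and 0.0820% in siNC on average, and the ratio of ACTB to ACTG1 is the one panel whose groups overlap.

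The alpha-actinins parted, in that ACTN1 rose and ACTN4 did not pass. ACTN1, found in stress fibres and focal adhesions, had 23111, 22615 and 23339 normalised reads in siELF5, against 18771, 19803 and 19842 in siNC. The siELF5 libraries were all above the siNC libraries. The mean was 23022 ± 370 (SD, n = 3) in siELF5 and 19472 ± 608 (SD, n = 3) in siNC, with a log2 fold change of 0.24 and an SE of 0.0316 (limma adjusted p = 4.88e-05). It was 0.25 after GC correction and 0.14 (limma adjusted p = 0.334) with the GC score as a covariate.

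ACTN4, an alpha-actinin of cell edges and cytoplasm, had 15875, 15430 and 16284 normalised reads in siELF5, against 14657, 16019 and 16866 in siNC. The siNC libraries spanned the siELF5 libraries on both sides. The means were 15863 ± 427 (SD, n = 3) in siELF5 and 15847 ± 1110 (SD, n = 3) in siNC, with a log2 fold change of 0.00 and an SE of 0.0452 (limma adjusted p = 0.959, 95% interval -0.09 to 0.10). ACTN4 has the highest transcript GC content of the 10, at 58.6%. After GC correction it was lower in siELF5, with a log2 fold change of -0.11 (limma adjusted p = 0.00692), and with the GC score as a covariate it was -0.26 (limma adjusted p = 0.0776).

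The ratio of ACTN1 to ACTN4 was 1.46, 1.47 and 1.43 in siELF5, against 1.28, 1.24 and 1.18 in siNC. The groups did not overlap (log2 difference 0.24, exact two-sided permutation p = 0.1, adjusted p = 0.117). The coding sequences of ACTN1 and ACTN4 were identical at 79.0% of aligned positions, with a longest shared run of 73 bases. A read that lies wholly within that run cannot be assigned by its own bases. ACTN2, the muscle alpha-actinin, was present at a low level and also rose, with 440, 426 and 428 normalised reads in siELF5 against 336, 314 and 356 in siNC (log2 fold change 0.36, limma adjusted p = 0.00586). ACTN2 lost its call with the GC score as a covariate (0.27, limma adjusted p = 0.615). ACTN2 was named after its value was seen.

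SYNPO2, low in both groups, fell most. It had 7.24, 22.6 and 24.6 normalised reads in siELF5 (8, 23 and 24 reads), against 95.4, 101 and 70.8 in siNC (83, 110 and 70 reads). Every siELF5 library was well below every siNC library, and siELF5 replicate 1 was lowest. The mean was 18.2 ± 9.5 (SD, n = 3) in siELF5 and 89.2 ± 16.2 (SD, n = 3) in siNC, or 20.3% of the siNC mean. The log2 fold change was -2.38 with an SE of 0.393 (limma adjusted p = 0.000301, 95% interval -3.24 to -1.53), the 15th lowest of all tested genes. It was -2.33 after GC correction, -1.86 without siELF5 replicate 1 and, with the GC score as a covariate, -2.03 (SE 0.98, limma adjusted p = 0.248). The authors' deposited table gave SYNPO2 a log2 fold change of -2.31.

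**Figure D4:**
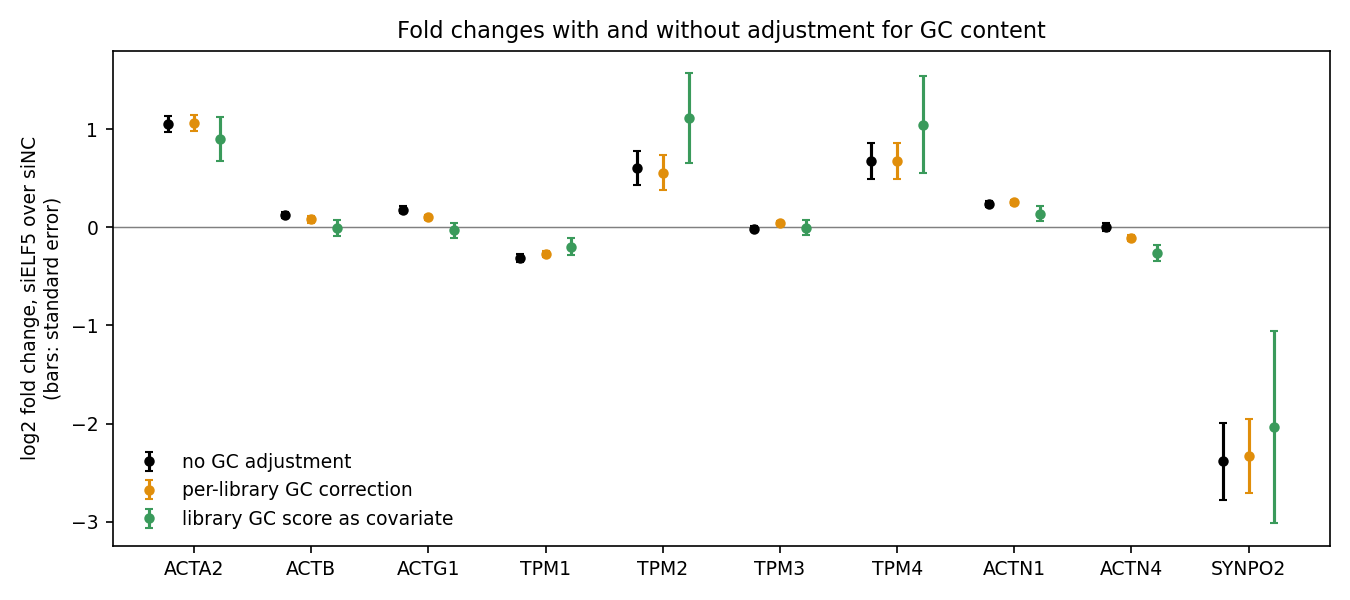
Log2 fold change of siELF5 over siNC for each gene (points) with its standard error (bars), without GC adjustment (black), after a per-library GC correction (orange) and with the GC score of each library as a covariate (green). ACTA2 stays between 0.90 and 1.07 in all of them, and ACTN4 moves to -0.11 after the correction. The standard errors of every gene widen with the covariate, and those of TPM2, TPM4 and SYNPO2 are the largest.

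Promoter sequence was read for the 10 genes because many of them are known SRF targets. RefSeq promoter windows of GRCh38.p14, which run from 250 bases before to 50 bases after an annotated start, were found for 9 of the 10 genes, in 20 windows; ACTB was not among them. The CArG box was searched by its strict form, which reads as a CArG box on either strand. It occurred in 1 window each of ACTG1, TPM4 and ACTN1, that is in 3 of the 20 windows (3 of 9 genes). Of all 35116 windows, 1.29% held a box (1.06% of those of tested genes). The boxes are shown in capitals with 10 bases on each side, 5′ to 3′ on the strand of the gene. They begin 94, 173 and 171 bases before the start in ACTG1 (window chr17:81512750-81513049, minus strand), TPM4 (chr19:16067288-16067587, plus strand) and ACTN1 (chr14:68977517-68977816, minus strand). ACTA2 and TPM2 also rose and had no strict box, and a relation of the box to the direction of change was not tested.
ACTG1: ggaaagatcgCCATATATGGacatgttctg
TPM4: aatcctaggtCCAAATAAGGcgagggctgc
ACTN1: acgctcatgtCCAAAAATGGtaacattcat

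ACTA2 had windows at 2 starts and no strict CArG box in either. The window at chr10:88952724-88953023 (minus strand, GRCh38.p14) held 2 words 1 base away from the strict form, in capitals, which begin 121 and 71 bases before the start. It is shown whole because ACTA2 rose most. Of all windows, 18.9% held at least 1 word at most 1 base away, exact boxes included (14.7% of those of tested genes). The other ACTA2 window held none. Binding of SRF to these words or to the strict boxes was not tested.
ACTA2: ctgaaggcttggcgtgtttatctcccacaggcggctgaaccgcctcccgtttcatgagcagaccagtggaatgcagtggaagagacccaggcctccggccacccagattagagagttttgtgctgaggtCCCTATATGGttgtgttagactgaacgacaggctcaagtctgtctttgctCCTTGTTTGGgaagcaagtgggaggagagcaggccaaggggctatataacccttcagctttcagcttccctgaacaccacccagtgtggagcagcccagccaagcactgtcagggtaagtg

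ELF5 binds the ETS core, so the windows were also searched for AGGAAG and CGGAAG on either strand. At least 1 occurred in 14 of the 20 windows, beside 46.9% of all windows and 51.7% of those of tested genes. All 9 genes with a window had at least 1, but a gene can have several windows. The share per gene over all genes was not counted. A match here describes letters and not a bound site, and no binding data were used.

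Regulators of the SRF pathway differed by little. SRF had a log2 fold change of 0.08 (limma adjusted p = 0.23), which turned to -0.16 after GC correction (limma adjusted p = 0.0039), and MKL1 0.14 (limma adjusted p = 0.0714), whereas MKL2 fell by 0.16 on the log2 scale (limma adjusted p = 0.00584). Of 19 tested genes on a list of SRF, its coactivators and its targets, 8 were higher and 5 lower (median log2 fold change 0.08), beside 23.8% higher and 23.3% lower of all tested genes, and after GC correction 7 were higher and 6 lower with a median of -0.09. JUNB, an immediate-early AP-1 gene, rose by 1.29 (0.77 after GC correction, and 0.05 with limma adjusted p = 0.93 with the GC score as a covariate). EGR1, an immediate-early zinc-finger gene, rose by 0.56, although its groups overlapped (limma adjusted p = 0.045). With the GC score as a covariate EGR1 was at -0.48 (limma adjusted p = 0.647). TAGLN2, a transgelin of non-muscle cells, fell by 0.58 on the log2 scale. TAGLN, the smooth muscle transgelin often read alongside ACTA2, had 541 ± 72.2 (SD, n = 3) normalised reads in siELF5 and 576 ± 43.9 (SD, n = 3) in siNC and did not pass.

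Beyond the 10 genes, 123 further actin cytoskeleton genes in 8 lists were tested, and 42 were higher, 32 lower and 49 did not pass. Their median log2 fold change was 0.02. Counts here and in each list below can be read against all tested genes, 47.1% called, 23.8% higher and 23.3% lower.

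Other actins and actin-related genes were mostly near 0 or not called. ACTA1, ACTC1, ACTG2 and ACTBL2, the muscle and minor actins, had at most 12.3 normalised reads in any library and were not tested. Of 4 tested, 1 was lower, ACTR1A of the dynactin complex, by 0.35 on the log2 scale. Of 15 non-muscle myosin genes, 5 were higher and 6 lower. MYL9, a regulatory myosin light chain, rose by 0.33, but by 0.12 after GC correction. The essential light chains MYL6 and MYL6B fell by 0.24 and 0.30 on the log2 scale. Fitted with the GC score, MYL9 was at 0.03 (limma adjusted p = 0.909) and MYL6 at -0.18 (limma adjusted p = 0.176). MYL6B stayed past the threshold there, at -0.49 (limma adjusted p = 0.0234).

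The list of tropomyosin partners held tropomodulins, calponins and troponins. Here 5 of 13 tested were higher and none lower, beside 23.8% higher and 23.3% lower of all tested genes. The median log2 fold change was 0.23, and 0.0015 over all tested genes. After GC correction the list median was 0.09, with 6 higher and none lower. The fit with the GC score left 1 higher. CNN3, the calponin of non-muscle cells, had 25600 ± 1280 (SD, n = 3) normalised reads in siELF5 and 18400 ± 527 (SD, n = 3) in siNC, a log2 fold change of 0.48 (limma adjusted p = 7.97e-07). The troponins TNNC1 and TNNI3, otherwise genes of striated muscle, rose by 0.91 and 0.51 from low levels (0.86 and 0.40 after GC correction). With the GC score as a covariate TNNC1 was at 0.98 (limma adjusted p = 0.26) and TNNI3 at -0.20 (limma adjusted p = 0.714). CALD1, a caldesmon that binds actin with tropomyosin, averaged 1456 normalised reads in siELF5 and 1422 in siNC and did not pass.

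Filament assembly genes went both ways. Of 17 tested genes of the ARP2/3 complex, which nucleates branched filaments, and its activators, 4 were higher and 4 lower. Its 2 alternative ARPC1 subunits moved apart, as ARPC1B had 4685 ± 337 (SD, n = 3) normalised reads in siELF5 and 2412 ± 247 (SD, n = 3) in siNC (log2 fold change 0.96, and 0.77 after GC correction), and ARPC1A had 7230 ± 25.7 in siELF5 and 10234 ± 136 (SD, n = 3) in siNC (log2 fold change -0.50). WASF1, a WAVE activator of ARP2/3, rose by 0.38. Of 17 formins and elongation genes, 8 were higher and 3 lower. FMN2, a formin that builds straight filaments, had 188 ± 15.7 in siELF5 and 410 ± 30.1 (SD, n = 3) in siNC (log2 fold change -1.12). The formin DAAM1 fell by 0.43 on the log2 scale, and INF2 rose by 0.82 (0.43 after GC correction). Fitted with the GC score, FMN2 was at -0.76 (limma adjusted p = 0.135) and INF2 at 0.08 (limma adjusted p = 0.758). DAAM1 stayed past the threshold there, at -0.35 (limma adjusted p = 0.00877).

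Of 21 genes of filament turnover and monomer binding, 6 were higher and 8 lower. TMSB10, a thymosin that holds actin monomers, fell by 0.46 on the log2 scale. CORO1B and TWF2, a coronin and a twinfilin, rose by 0.56 and 0.41, but by 0.09 and 0.06 after GC correction, where TWF2 was no longer called. They were at -0.08 and -0.14 with the GC score as a covariate, neither past the threshold. Of 23 tested crosslinkers and Z-disc partners, 10 were higher and 6 lower. FLNC and FSCN1, a filamin and fascin, rose by 1.21 and 0.90 (0.89 and 0.36 after GC correction). FLNC was at 0.28 (limma adjusted p = 0.738) and FSCN1 at 0.59 (limma adjusted p = 0.278) with the GC score as a covariate.

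SYNPO, the paralogue of SYNPO2, fell as well, with 163 ± 8.98 (SD, n = 3) normalised reads in siELF5 and 294 ± 31.9 (SD, n = 3) in siNC, a log2 fold change of -0.84. PALLD, an actin-bundling partner of alpha-actinin named after its value was seen, fell by 0.84 on the log2 scale as well. SYNPO lost its call with the GC score as a covariate (-0.43, limma adjusted p = 0.505). PALLD kept its call there (-0.72, limma adjusted p = 8.89e-05).

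**Figure D5:**
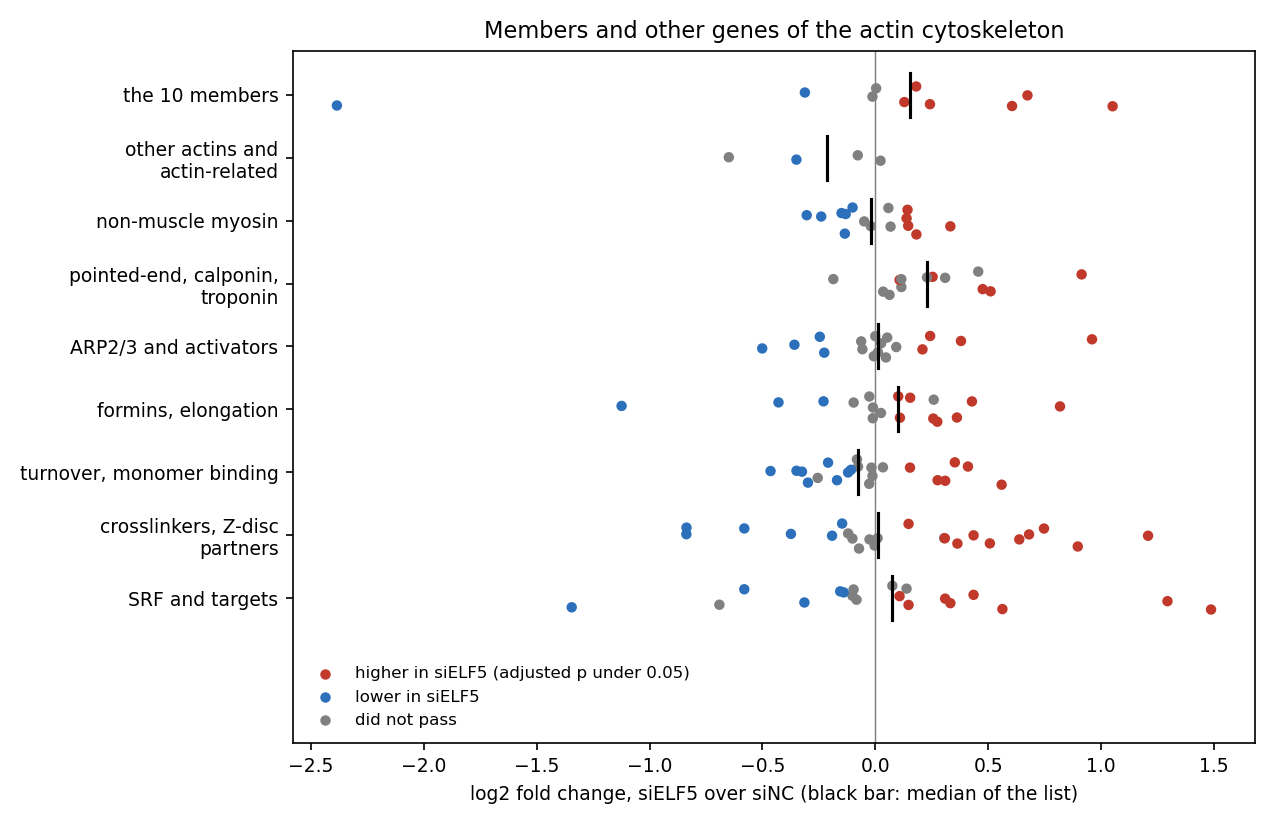
Log2 fold change of siELF5 over siNC for the 10 genes and for 8 lists of other actin cytoskeleton genes; each point is a gene, red for higher and blue for lower in siELF5 at an adjusted p under 0.05, grey for genes that did not pass, and black bars are list medians. Most lists straddle 0, and the tropomyosin partners have no gene called lower, with a median of 0.23. Of all tested genes, 23.8% were called higher and 23.3% lower.

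Among 12659 genes searched, those whose log2 values ran most like ACTA2 over the 6 libraries included IGFBP4 (Pearson r = 0.999) and PSMB9 (0.9989). For TPM1 they were ZNF280D (0.999), PTS (0.9987) and PPP2R1B (0.9985), and for SYNPO2 they were ACTR8 (0.9987), OVGP1 (0.9986) and NOCT (0.9983). The 6 libraries fall into 2 groups, so these values mostly restate the difference between groups and are given as a description.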

How the data were processed

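Total RNA of 6 T47D libraries, prepared, per the labels, by the TruSeq v2 kit for RNA, was analysed from 1 deposited table of the whole series. The build hg19 and STAR 2.6, Subread, featureCounts 1.6.3 and DESeq2 1.22.1 are named in the submitters' processing notes; their settings, including strand and shared reads, are not stated there. The deposited per-library signal values are gene counts divided by a size factor, since 100% of values were whole multiples of the column's smallest value (tolerance 1e-06), and whole reads were recovered from them. The deposited log2 fold change and its error, the deposited test score and the deposited p-value are the authors' own, per the file headers, and entered no test. Of the 10 genes, 8 in the authors' deposited table passed an adjusted p of 0.05.

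Groups came from the sample titles. The test was limma 3.58.1 (R 4.3.3) with trend, two-sided, without covariates, on log2(value + 1), for genes with a mean of at least 10, adjusted by Benjamini-Hochberg, with a threshold of 0.05. The script was tested on simulated data. Ratios within a library were compared by exact permutation. Replicate pairs differed beyond sampling noise (chi-square per degree of freedom 4.37 to 12.0), so none was a copy. Depth was 66.8 M to 83.7 M reads, and counting error weighs most on SYNPO2, TPM2, TPM4 and ACTA2, the genes with the fewest reads. On recovered reads edgeR 4.0.16 called 7565 genes and DESeq2 1.42.0 called 7292.

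GC content came from the longest GENCODE 29 transcript per symbol (93.2% of tested genes). The GC correction subtracts a loess curve (span 0.3) per library, and the GC score subtracts the median deviation of the fifth of 10 GC classes from that of the highest class. Merged exon lengths, overlaps and shared 50-base words came from GENCODE 29 and promoters from RefSeq, both on GRCh38, while the counts are on hg19, so no count was placed by coordinate.

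The members, lists, rule for named genes and alternatives were chosen with earlier results of these data known. Named genes were the 10, ELF5, up to 3 called genes per list with the largest change and a mean of at least 50, and the 3 genes most like ACTA2, TPM1 and SYNPO2; SRF, MKL1, MKL2, TAGLN, CALD1, ACTN2, PALLD, FAS and the pseudogenes were named outside it. The lists overlap in 7 genes. Some genes and 1 list that were chosen are not reported here.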

Additional observations from a re-analysis of the deposited data

How the results depend on the processing

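Over 20 alternatives, 13 left 6 of the 10 genes higher and 2 lower. ACTA2 and TPM3 kept their call under all 20, and ACTA2 ranged from 0.90 to 1.09. With the GC score of each library in the fit 1 gene was higher and 0 lower, and 509 genes of all tested were higher and 638 lower; ACTB was at -0.006, ACTG1 at -0.0311, TPM1 -0.20, TPM2 1.11, TPM4 1.05, ACTN1 0.14 and SYNPO2 -2.03, none past the threshold, with the median standard error at 0.1508 instead of 0.0634. The context lists then held 8 higher and 9 lower in all, namely 0 and 1 for myosin, 1 higher for tropomyosin partners, 2 and 1 for ARP2/3, 0 and 1 for formins, 2 and 1 for turnover, 3 and 4 for crosslinkers, 0 and 2 for SRF targets and 0 and 1 for the other actins, with genes on 2 lists counted once in the total. After GC correction, with or without a replicate block, ACTN4 was at -0.11 (limma adjusted p = 0.00692 without and 0.00814 with the block) and the other actins held 1 higher and 2 lower. ACTB lost its call without the trend (0.13, limma adjusted p = 0.062), where formins held 4 higher; TPM2 lost its call after quantile scaling (0.42), and with equal column totals myosin held 3 lower and the tropomyosin partners 8 higher. The cause of these shifts was not tested.

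Leaving out each library in turn gave log2 fold changes of 1.01 to 1.09 for ACTA2, 0.49 to 0.75 for TPM2, 0.58 to 0.76 for TPM4, -0.05 to 0.05 for ACTN4, -0.02 to 0.01 for TPM3 and -2.68 to -1.86 for SYNPO2, with 5 to 6 of the 10 higher; myosin held 3 to 5 higher and 3 to 5 lower, and formins 4 to 7 higher. A replicate block left 6 higher and 2 lower of the 10 and called 7174 genes in all (7281 together with GC correction). Same-numbered libraries did not deviate together (r = -0.0202, -0.0632 and -0.155 over 12851 genes), and not every library correlated best with its own number, so the numbers are not taken to pair samples. SYNPO2, TPM2 and TPM4 rest on few reads, so their folds are the least precise.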
